A study of Mus musculus with 9 samples.

Results

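Elastic fibres and matricellular proteins were followed through 10 listed genes in perigonadal white adipose tissue, the fat depot beside the gonads. The genes are Fbn1, Eln, Mfap5, Fbln1, Fbln2, Lox, Thbs1, Thbs2, Fn1 and Postn, and each was measured by the exon array probe sets that carry its symbol and no other. Of the 10 genes, 9 had such probe sets, 306 in all, and the same 9 passed the filter on dim genes. Lox, the enzyme that crosslinks elastin and collagen, was not analysed here. The whole series holds 16299 gene symbols, of which 11342 genes were tested. Wild-type mice (WT), mice labelled G609G/G609G and mice labelled LCS/LCS were compared at an age of 4 months, with 3 arrays of total RNA in each group. Both mutants are homozygous for an allele of Lmna, which encodes the A-type lamins of the nuclear envelope: from G609G, a model of progeria, a shortened lamin A named progerin is spliced, and LCS yields lamin C in place of lamin A. The labels give these as genotypes of the mouse, with no driver restricted to a cell type, and sex and strain are not given in the labels used here.

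An elastic fibre has a core of elastin, the product of Eln, inside a sheath of microfibrils. Fibrillin-1, from Fbn1, is the main microfibril protein and also holds latent TGF-beta, a growth factor that drives matrix production. Mfap5 binds fibrillin, and the fibulins Fbln1 and Fbln2 join elastin, microfibrils and basement membranes. Matricellular proteins such as thrombospondins 1 and 2 (Thbs1, Thbs2) and periostin (Postn) do not build the scaffold but tune how cells attach to it. Fibronectin (Fn1) is an early fibrillar matrix protein onto which microfibrils and collagen are laid. In fat, stromal fibroblasts and adipocyte progenitors are known as main sources of this matrix.

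Promoter sequences, taken from RefSeq on assembly GRCm38.p6, were found for 5 of the 10 genes, with 7 transcription starts. Each window is the 250 bases before a start, and 4 are shown because 3 of these genes shared one pattern over the arrays (Fbn1, Fbln2 and Postn) and Thbs2 did not. They are written 5′ to 3′ on the gene's strand. Capitals mark the matches to 3 motifs searched on both strands: the TATA box (TATAAA), the short element bound by SMAD factors (CAGAC) and the GC box (GGGCGG). A match is a description of letters, not a known binding site.
Fbn1: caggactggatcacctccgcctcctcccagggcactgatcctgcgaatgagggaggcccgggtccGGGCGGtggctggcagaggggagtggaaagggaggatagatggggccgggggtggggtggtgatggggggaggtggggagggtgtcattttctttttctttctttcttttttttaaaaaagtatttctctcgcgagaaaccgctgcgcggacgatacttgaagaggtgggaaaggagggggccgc
Fbln2: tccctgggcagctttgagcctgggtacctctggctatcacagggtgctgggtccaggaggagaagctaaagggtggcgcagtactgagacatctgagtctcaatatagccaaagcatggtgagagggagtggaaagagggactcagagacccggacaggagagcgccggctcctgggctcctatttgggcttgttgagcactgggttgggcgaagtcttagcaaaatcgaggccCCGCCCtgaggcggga
Postn: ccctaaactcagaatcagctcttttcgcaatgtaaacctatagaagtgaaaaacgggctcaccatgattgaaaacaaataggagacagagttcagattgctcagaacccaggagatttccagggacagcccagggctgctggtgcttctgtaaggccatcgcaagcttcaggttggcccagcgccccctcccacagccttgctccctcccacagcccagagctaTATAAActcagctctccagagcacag
Thbs2: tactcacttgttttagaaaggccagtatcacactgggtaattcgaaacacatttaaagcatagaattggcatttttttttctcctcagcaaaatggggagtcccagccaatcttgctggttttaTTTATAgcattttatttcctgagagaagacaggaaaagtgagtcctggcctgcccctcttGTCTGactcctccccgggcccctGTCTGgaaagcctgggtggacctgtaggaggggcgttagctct
The Fbn1 window lies at chr2:125506439-125506688 on the minus strand, the Fbln2 window at chr6:91212514-91212763 on the plus strand, the Postn window, the second of its 2 starts, at chr3:54360857-54361106 on the plus strand, and the Thbs2 window at chr17:14694263-14694512 on the minus strand. Counting back from the start, the GC box lay at bases -185 to -180 of Fbn1 and, on the other strand, at -16 to -11 of Fbln2. Postn had a TATA box at -26 to -21. Thbs2 had a TATA box on the other strand at -126 to -121 and short SMAD elements on the other strand at -66 to -62 and -43 to -39. Short SMAD elements also lay before the first Postn start (1, at -191 to -187) and before each of the 2 Fbln1 starts (2 each), windows that are not shown. The second Fbln1 start also had a GC box on the other strand at -11 to -6. No match overlapped another in the 4 windows shown. Among all 32851 windows of the same length, 12.4% held the TATA box, 42.2% the short SMAD element and 32.7% the GC box on either strand.

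The deposited values are log2 intensities, so that a difference of 1 is a doubling, and a gene's level here is the median-polish summary of its probe sets. Levels of different genes are not comparable on this array, and only differences of one gene between arrays are read. The G609G arrays stood apart as a group. Their median over all probe sets was 6.57 ± 0.06, against 7.21 ± 0.06 in WT and 7.23 ± 0.04 in LCS (SD, n = 3), and the 13 measured skeletal muscle markers were all higher in G609G than in WT. Gene-level differences of G609G are therefore given as deposited and also relative to the median gene; in pairs of values for one gene the deposited one comes first. This relative scale removes the offset common to all genes, which was -0.46 for G609G minus WT, -0.50 for G609G minus LCS and 0.03 for LCS minus WT. The number of arrays limits the precision. That each array comes from an animal of its own is not stated in the labels, and p-values here rest on the spread between samples of a group, part of which may be technical.

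Among the microfibril and elastic fibre genes, Fbn1 measured 9.99, 9.99 and 10.03 on the WT arrays, 7.92, 7.96 and 8.09 on the G609G arrays and 11.01, 10.94 and 10.98 on the LCS arrays. Its partner Mfap5 had 9.56, 9.50 and 9.70 in WT, 8.35, 8.31 and 8.50 in G609G and 10.55, 10.56 and 10.59 in LCS. Both were lowest in G609G and highest in LCS, and no array of one group reached into another. Eln had 8.44, 8.39 and 8.45 in WT, 8.01, 7.86 and 8.02 in G609G and 9.01, 8.96 and 8.97 in LCS. The order was the same, with G609G nearer to WT. Fbln2 had 9.56, 9.49 and 9.58 in WT, 8.25, 8.20 and 8.40 in G609G and 10.13, 10.10 and 10.11 in LCS, again without overlap. Fbln1 differed from these: its levels were 8.96, 8.92 and 9.03 in WT, 8.77, 8.74 and 8.93 in G609G and 8.98, 8.86 and 9.01 in LCS. The 3 groups of Fbln1 overlapped.

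Among the matricellular genes, Thbs1 measured 11.75, 11.71 and 11.79 in WT, 9.28, 9.20 and 9.41 in G609G and 12.25, 12.21 and 12.24 in LCS. Postn had 10.74, 10.72 and 10.78 in WT, 9.43, 9.49 and 9.67 in G609G and 11.34, 11.26 and 11.34 in LCS. Both followed the order of Fbn1 with no overlap. Thbs2 had 9.87, 9.75 and 9.87 in WT, 9.62, 9.69 and 9.77 in G609G and 9.67, 9.45 and 9.54 in LCS. Its G609G arrays overlapped both other groups, and its LCS arrays all lay below the WT arrays. Fn1 had 11.63, 11.61 and 11.64 in WT, 10.04, 10.08 and 10.17 in G609G and 12.15, 12.09 and 12.15 in LCS, in the order of Fbn1 and with no overlap. Within a group the SD of a gene's level lay between 0.02 for Fn1 in WT and 0.12 for Postn in G609G.

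**Figure D1:**
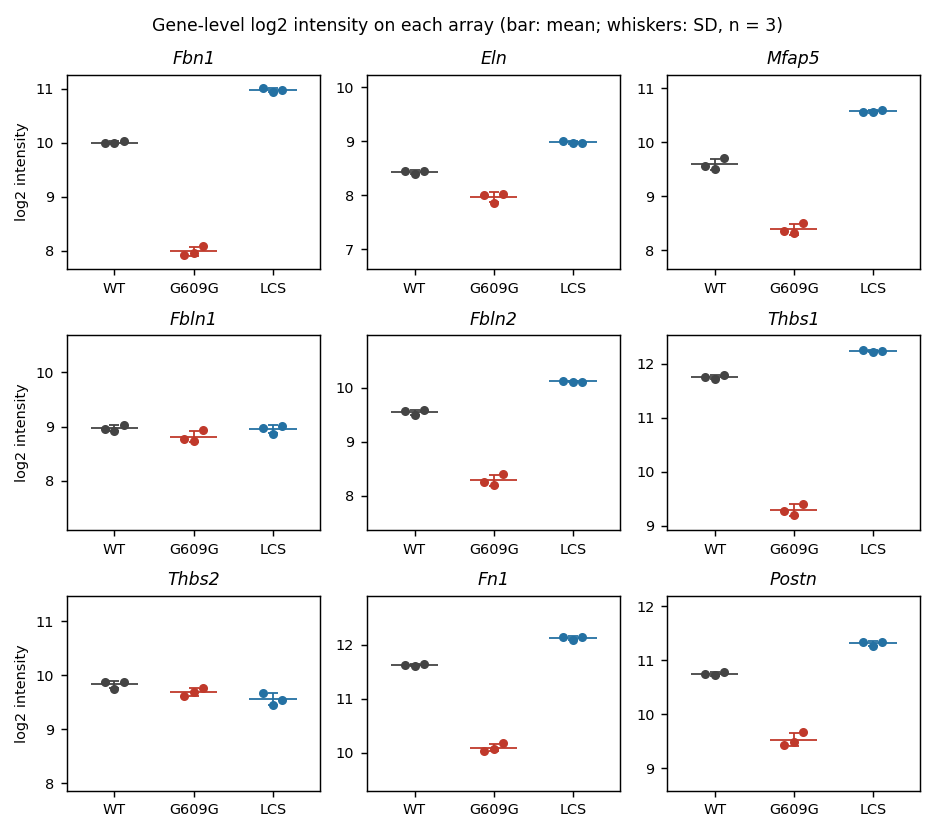
Log2 intensity (y axis) of each measured gene on the 9 arrays, with WT, G609G and LCS on the x axis; points are arrays, bars are means and whiskers SD (n = 3), and every panel spans the same number of log2 units. In 7 panels G609G is lowest and LCS highest with no overlap, while the groups of Fbln1 and Thbs2 lie close together. Of all genes, 79.2% did not overlap between G609G and WT in either direction. For LCS and WT this share was 52.2%, and for G609G and LCS 81.3%.

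The comparison of G609G with WT asks what differs in fat that carries the progeria allele. Thbs1 and Fbn1 had the lowest values against WT. Thbs1 fell by 2.45 on the log2 scale as deposited (SE 0.05, limma adjusted p = 3.87e-15), or 5.48-fold, and was 3.97-fold lower on the relative scale (-1.99). Fbn1 changed by -2.01 (SE 0.05, adjusted p = 1.77e-13), 4.04-fold lower, and was 2.93-fold lower on the relative scale (-1.55). Fn1 fell by 1.53 on the log2 scale (adjusted p = 5.33e-14), and its relative difference was -1.07. Fbln2 (-1.26 as deposited, -0.80 relative), Postn (-1.22 and -0.75) and Mfap5 (-1.20 and -0.74) fell by amounts close to each other, with adjusted p of 4.17e-10 or less as deposited. In bulk tissue, fewer cells of a type and less RNA per cell cannot be told apart.

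Eln, Fbln1 and Thbs2 depended on the scale in this comparison. As deposited Eln fell by 0.46 (SE 0.07, adjusted p = 1.61e-05), which is the offset of the median gene, and its relative difference was 0.00 (95% confidence interval -0.11 to 0.11, adjusted p = 0.997). Fbln1 was -0.16 as deposited (SE 0.07, adjusted p = 0.048), a call lost in 7 of the 9 fits that leave out 1 array (adjusted p from 0.00581 to 0.216), and 0.31 on the relative scale (adjusted p = 0.000111). The fits that lost it left out WT replicate 1, 2 or 3, G609G replicate 1 or 2, or LCS replicate 1 or 3. Thbs2 did not pass the test as deposited (-0.14, SE 0.06, adjusted p = 0.0622), but passed in 4 of the 9 fits that leave out 1 array (adjusted p from 0.0131 to 0.182 over the 9), those without WT replicate 2, G609G replicate 3 or LCS replicate 1 or 2. It also passed with a plain mean of probe sets (adjusted p = 0.00708), with array weights (adjusted p = 0.0284) and with a replicate block over the 9 arrays (adjusted p = 0.0417). With the replicate number as a block on the WT and G609G arrays Thbs2 passed (adjusted p = 0.028), and on the relative scale its difference was 0.33 (adjusted p = 8.38e-05).

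Counted over the measured genes, 8 of 9 were lower and 0 higher in G609G as deposited. Over all genes tested 71.3% were called lower and 8.26% higher, so a count of this kind lies near the background. On the relative scale 6 of 9 were lower and 2 higher, where 36.7% of all genes were lower and 34.0% higher. The median difference of the 9 genes was -1.22, and -0.75 on the relative scale, against -0.47 and -0.01 over all genes. As deposited, 7 of the 9 genes had G609G arrays entirely below the WT arrays. Of all genes 79.2% had groups that did not overlap in either direction.

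The comparison of LCS with WT asks what differs in fat with lamin C alone. Mfap5 and Fbn1, the microfibril genes, had the largest differences of the 9 genes. Mfap5 was 0.98 higher on the log2 scale (SE 0.06, limma adjusted p = 2.41e-08), a 1.97-fold difference, and Fbn1 0.97 higher (SE 0.05, adjusted p = 3.42e-09), or 1.96-fold. Eln (0.56), Fbln2 (0.57), Postn (0.57), Fn1 (0.50) and Thbs1 (0.48) rose by smaller and similar amounts, with adjusted p of 1.37e-05 or less. Thbs2 was lower (-0.28, SE 0.06, adjusted p = 0.0034). Fbln1 did not pass the test, with a difference of -0.02 and a 95% confidence interval from -0.17 to 0.13, so a change of the size seen in Fbn1 lies outside its interval.

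In LCS 7 of the 9 genes were higher and 1 lower, where 22.5% of all genes were called higher and 13.0% lower. The counts on the relative scale were also 7 and 1, beside 22.3% and 17.7% of all genes. The median difference of the 9 genes was 0.56, and 0.52 on the relative scale, against 0.05 and 0.02 over all genes. As deposited, 7 of the 9 genes had LCS arrays entirely above the WT arrays and 1 entirely below. Of all genes 52.2% had groups that did not overlap in either direction. A fit on the WT and LCS arrays alone, which leaves the G609G arrays out, also called 7 higher and 1 lower. Of the 9 genes, 2 passed a fold of 1.5, Mfap5 and Fbn1. The deposited Thbs2 call was lost with the methods' t-test after adjustment over all genes (adjusted p = 0.0592), an alternative chosen after seeing the data.

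**Figure D2:**
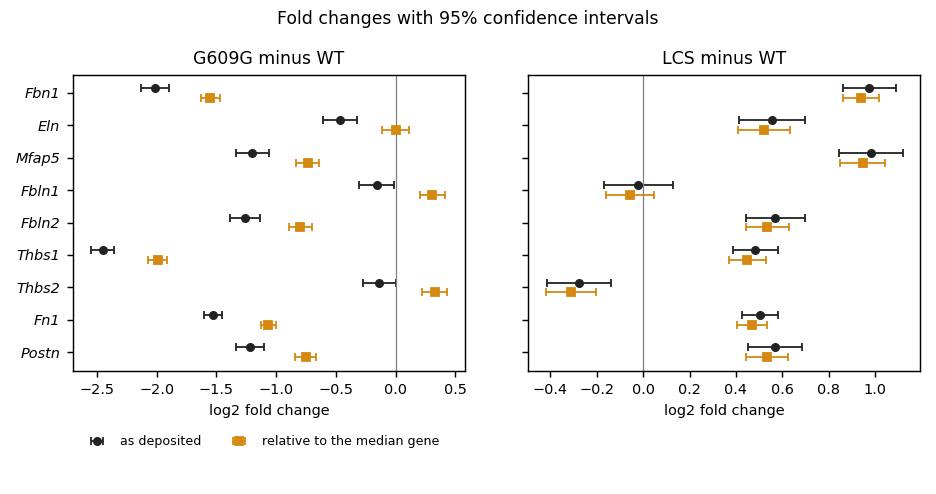
Log2 fold change (x axis) of each gene (y axis) in G609G minus WT on the left and LCS minus WT on the right, with 95% confidence intervals from limma; black circles are values as deposited and orange squares are relative to the median gene. The scales are 0.46 apart for G609G and 0.03 for LCS, and in G609G the signs of Fbln1 and Thbs2 and the call of Eln change with the scale.

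The direct comparison of both mutants shares its arrays with the comparisons above. In G609G minus LCS the deposited and relative differences were -2.99 and -2.49 for Fbn1, -2.94 and -2.44 for Thbs1, -2.18 and -1.68 for Mfap5, and -2.03 and -1.53 for Fn1. They were -1.83 and -1.33 for Fbln2, -1.78 and -1.29 for Postn, and -1.02 and -0.52 for Eln. These 7 genes were lower in G609G on both scales, with limma adjusted p of 3.18e-09 or less as deposited. Fbln1 (-0.14, adjusted p = 0.0811) and Thbs2 (0.14, adjusted p = 0.0565) did not pass the test as deposited. Thbs2 passed without G609G replicate 1 (adjusted p = 0.0345) or LCS replicate 1 (adjusted p = 0.0137), and Fbln1 without G609G replicate 3 (adjusted p = 0.00714) or LCS replicate 2 (adjusted p = 0.0175). Both passed with array weights (adjusted p = 0.00124 for Fbln1 and 0.0434 for Thbs2) and with the replicate block over the 9 arrays (adjusted p = 0.032 and 0.0374), and Fbln1 with a plain mean of probe sets (adjusted p = 0.0187). On the relative scale both were higher in G609G, Thbs2 by 0.64 and Fbln1 by 0.36. Thus 7 genes were lower and 0 higher as deposited, where 70.5% and 9.38% of all genes were called, and 7 lower and 2 higher on the relative scale, where 36.9% of all genes were called in each direction. The median difference was -1.83, and -1.33 on the relative scale, against -0.48 and 0.02 over all genes.

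Related genes on one array can be set against each other without any choice of scale, because an offset common to the array cancels. The log2 difference between the thrombospondins Thbs1 and Thbs2, set to 0 at the WT mean, lay between -2.41 and -2.26 on the G609G arrays, between -0.04 and 0.04 on the WT arrays and between 0.66 and 0.84 on the LCS arrays. For the fibulins Fbln2 and Fbln1 the ranges were -1.11 to -1.09 in G609G, -0.03 to 0.03 in WT and 0.53 to 0.66 in LCS. For Fbn1 and Eln, the sheath and the core of the elastic fibre, they were -1.67 to -1.48, -0.03 to 0.02 and 0.40 to 0.43. So Thbs1 moved apart from Thbs2, Fbln2 from Fbln1 and Fbn1 from Eln, in both mutants and without overlap between groups. The exact two-sided permutation test over 3 against 3 arrays gave p = 0.1 for each of these differences, the smallest p this design allows. The 3 pairs were chosen after their values were seen, so this p adds nothing to the ranges. How often other pairs of genes fail to overlap was not counted. Of single genes as deposited, 79.2% did not overlap between G609G and WT. For LCS and WT this share was 52.2%, and for G609G and LCS 81.3%.

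Single probe sets, which mostly lie in single exons, were read next to see whether a gene moved as a whole. Of the 306 probe sets 301 lay above the filter on dim probe sets. As deposited, 283 of them were lower in G609G than in WT and 18 higher (94.0% lower, beside 79.3% of all probe sets above the filter). With the offset of each array removed, 237 were lower and 64 higher (78.7% lower, beside 52.3%). Every probe set above the filter was lower on both scales for Fn1 (54), Thbs1 (27), Postn (25) and Mfap5 (9). For Fbln2 25 of 25 were lower as deposited and 24 on the relative scale, and for Fbn1 75 and 74 of 77. For Eln (33 of 39), Thbs2 (18 of 23) and Fbln1 (17 of 22) the deposited counts turned with the scale: 18, 3 and 3 probe sets were lower on the relative scale, and 21, 20 and 19 higher. In LCS 265 were higher and 36 lower on either scale (88.0% higher, beside 57.7% of all probe sets as deposited and 53.2% on the relative scale). All were higher for Fn1, Eln, Thbs1, Fbln2, Postn and Mfap5, and 76 of 77 for Fbn1, whereas 9 of 22 were higher for Fbln1 and 1 of 23 for Thbs2. The low level of Thbs2 in LCS was thus seen in nearly all of its probe sets. The probe sets of a gene share its transcripts and arrays and are not replicates.

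**Figure D3:**
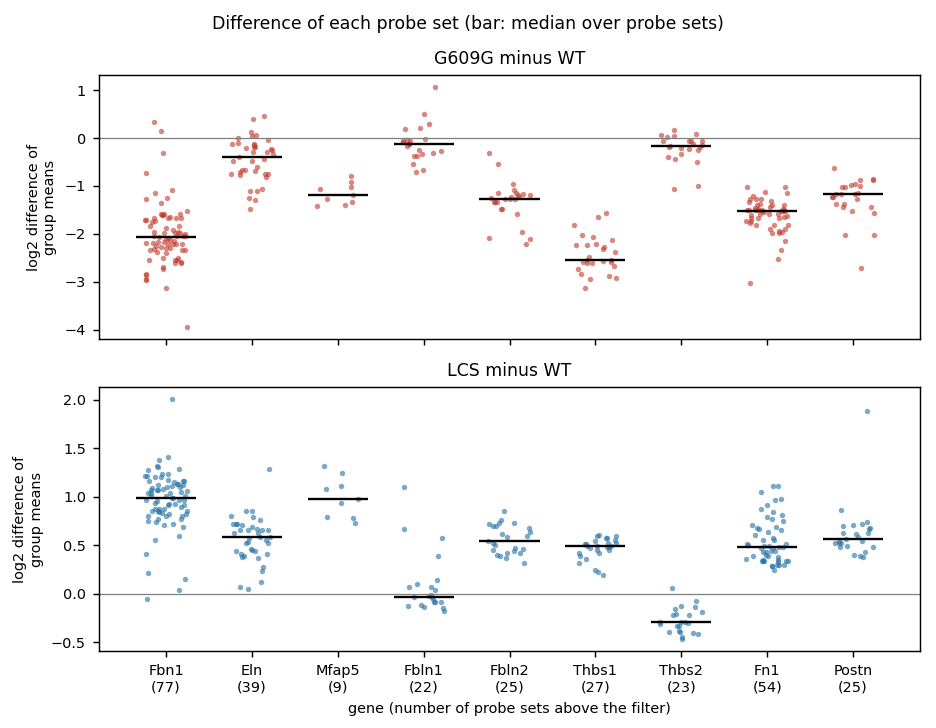
Log2 difference of group means (y axis) for each probe set above the filter, by gene (x axis, with the number of probe sets), in G609G minus WT above and LCS minus WT below; bars are medians over probe sets. The points of Fn1, Thbs1, Fbln2, Postn and Mfap5 lie wholly below 0 in G609G as deposited and wholly above 0 in LCS, and those of Fbln1 and Thbs2 lie around or near 0.

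Probe sets that moved apart from the rest of their gene were tested with limma's diffSplice. In G609G minus WT 80 of the 301 were called (26.6%, beside 15.8% of all 155155 probe sets tested), in LCS minus WT 13 (4.32%, beside 1.80%) and in G609G minus LCS 109 (36.2%, beside 18.4%). In G609G minus WT Fbn1 gave 26 of these calls, Fn1 16 and Thbs1 12. Fbn1 probe set 4687956 averaged 7.06 on the WT arrays, 7.39 in G609G and 7.27 in LCS, so that it did not follow the fall of its gene (2.37 above the rest in G609G minus WT, adjusted p = 7.28e-30). Fbn1 probe set 5608592 was likewise flat, at 6.94, 7.09 and 6.88, and stood 3.22 above the rest in G609G minus LCS (adjusted p = 5.62e-50). Fn1 probe set 5201971, at 9.12, 6.10 and 10.10, fell further than the rest of Fn1 (-1.44 in G609G minus WT, adjusted p = 5.03e-24, and -1.87 in G609G minus LCS). Thbs1 probe set 4497837, at 13.39, 11.84 and 13.59, fell less than the rest (0.90 and 1.19 above it, adjusted p = 7.01e-12 in G609G minus WT). These diffSplice p rest on a variance shared over the probe sets of a gene, which are not replicates. With a variance per probe set (limma on probe set minus gene) the calls held at larger adjusted p. In G609G minus WT it was 0.00129 for 4687956, 0.00383 for 5201971 and 0.000289 for 4497837. For 5608592 it was 0.000138 in G609G minus LCS. The highest value of any probe set on these arrays was 14.38.

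In LCS minus WT the probe sets with the lowest p were 4895671 of Postn, 4408111 of Fbn1 and 4495278 of Fbln1. The Postn probe set averaged 5.85 on the WT arrays, 4.40 in G609G and 7.73 in LCS and stood 1.31 above the rest of the gene (adjusted p = 1.02e-07), with the G609G mean under the probe set filter. The Fbln1 probe set had 6.89, 7.96 and 7.99 and stood 1.06 above the rest (diffSplice adjusted p = 1.47e-05). As deposited it was higher in both mutants while Fbln1 as a whole was not. On the relative scale Fbln1 as a whole was also higher in G609G than in WT, by 0.31. The Fbn1 probe set, whose G609G mean also lay under the filter, at 5.79 ± 0.88, 3.58 ± 0.34 and 7.80 ± 0.34 (SD, n = 3), stood 1.07 above the rest (adjusted p = 3.22e-06). When each probe set was given a variance of its own (a splicing index, probe set minus gene), the Postn and Fbln1 calls held (adjusted p = 0.0367 and 0.0478) and the Fbn1 call was lost (adjusted p = 0.5). Where these probe sets lie within their genes was not analysed here.

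The likeness of profiles was measured as the root mean square difference of log2 levels over the 9 arrays, each gene centred on its own mean. The gene nearest to Fbn1 outside the list was Emp1, an epithelial membrane protein, at 0.052. Nearest to Fbln2 was the phospholipid-binding annexin Anxa1, at 0.026. Fads3 of the fatty acid desaturase family was nearest to Thbs1 (0.031), Raver2 to Fn1 (0.021) and Mlec, a lectin of the endoplasmic reticulum, to Postn (0.031). Lbp, the lipopolysaccharide-binding protein, was nearest to Mfap5 (0.047) and Lpcat2, an acyltransferase, to Eln (0.045). The profiles of Fbln1 and Thbs2, which spanned only 0.29 and 0.42 over the 9 arrays as deposited, were nearest to the sodium-proton exchanger Slc9a8 (0.023) and to Ms4a4b (0.043). Among the listed genes themselves Fbln2 and Postn were closest, at 0.041. Of the tested genes outside the list, 2 were nearer to Fbln2 than Postn was, and 4 nearer to Postn than Fbln2 was. More outside genes were nearer than the closest listed gene for Fbn1 (36), Thbs1 (60), Mfap5 (63) and Fn1 (89). For Thbs2 there were 689, for Fbln1 2126 and for Eln 6595. Fbn1 and Thbs1 were 0.22 apart, and Eln was 0.36 from its nearest listed gene, Postn.

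Other genes of the same pathways were taken from lists of textbook members. As a background in G609G minus WT, 71.3% of all genes were called lower and 8.26% higher as deposited. On the relative scale these shares were 36.7% and 34.0%. In G609G minus WT, of 21 tested genes of microfibril and elastic fibre assembly 18 were lower and 0 higher as deposited, and 10 lower and 3 higher on the relative scale. Fbln5, which brings elastin to microfibrils, fell (-1.63 as deposited, -1.17 on the relative scale), as did Ltbp3, which holds latent TGF-beta (-1.60 and -1.13), and Efemp2, which is needed for elastin assembly (-1.29 and -0.83). Fbn2, the second fibrillin, lay below the filter in every group, at 4.53 in WT, 4.56 in G609G and 4.54 in LCS. Of 10 crosslinking genes 9 were lower as deposited, and 6 lower and 1 higher on the relative scale. The lysyl oxidase-like enzymes Loxl2 (-1.72 and -1.25) and Loxl1 (-1.65 and -1.18) and Bmp1 (-1.19 and -0.73), the protease that trims procollagen and lysyl oxidase, were among them. Of 8 elastin-degrading proteases 6 were lower and 2 higher as deposited, against 3 and 3 on the relative scale. The counts of lower proteases lay near the shares of all genes. The macrophage elastase Mmp12 (-2.05 and -1.58) and the cathepsin Ctss (-1.46 and -0.99) fell, and Mmp7 (0.60 and 1.06) and cathepsin Ctsl (0.45 and 0.91) were higher.

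Of 18 other matricellular genes 11 were lower and 3 higher in G609G as deposited, against 7 and 8 on the relative scale, so that the balance turned with the scale. Beside the counts of this paragraph, 71.3% of all genes were lower and 8.26% higher as deposited, and 36.7% and 34.0% on the relative scale. Smoc1 (-1.84 and -1.38) and Sparc, a collagen-binding glycoprotein (-1.50 and -1.04), fell, the tenascin Tnc was -0.21 as deposited and 0.25 on the relative scale, and Spock2 (0.30 and 0.76) and the connective tissue growth factor Ctgf (0.27 and 0.73) were higher. Of 14 receptors 12 were lower and 2 higher, and 8 and 3 on the relative scale. The syndecan Sdc4, which binds fibronectin (1.24 and 1.70), and Lrp1, which takes up thrombospondin (0.53 and 0.99), rose, whereas Calr (-1.03 and -0.57) and the thrombospondin receptor Cd36 (-0.68 and -0.21) fell. Of 14 TGF-beta ligands, receptors and targets 10 were lower and 2 higher as deposited, against 5 and 6 on the relative scale. These counts of lower genes lay near the shares of all genes. The ligand Tgfb1 (-1.39 and -0.93) and the target Skil (-0.96 and -0.49) fell, while the co-receptor Tgfbr3 (0.91 and 1.37) and Smad4 (0.13 and 0.59) were higher.

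In LCS minus WT the same lists had more genes higher than lower. Over all genes 22.5% were called higher and 13.0% lower as deposited, and 22.3% and 17.7% on the relative scale. The counts higher and lower were 14 and 0 of 21 for microfibril and elastic fibre assembly, 9 and 0 of 10 for crosslinking and 12 and 2 of 18 for the other matricellular genes. They were 8 and 1 of 14 for the receptors, 8 and 0 of 14 for TGF-beta and 4 and 1 of 8 for the proteases. Bmp1 rose by 0.86, Loxl1 by 0.73, the transglutaminase Tgm2 by 0.69, Fbln5 by 0.51, and Efemp1 (0.40) and the proteoglycan Bgn (0.37) by less. Efemp2 did not pass the test (0.13, limma adjusted p = 0.236). Cilp (1.20), Tnc (0.56) and Sparc (0.48) rose, and Spock1 (-0.68) and vitronectin, Vtn (-0.31), fell. Among the receptors Sdc4 (0.66) and the integrin Itgb5 (0.60) were higher and Itga8 lower (-0.65). Skil (0.66), Tgfbr3 (0.38) and Tgfb1 (0.33) were higher, as were Mmp7 (1.0) and Ctsl (0.59), and Mmp2, a gelatinase, was lower (-0.39). On the relative scale none of these 6 lists' counts of genes higher or lower in LCS moved by more than 1.

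Between the mutants, the genes lower in G609G than in LCS included Smoc1 (-2.32 as deposited and -1.83 on the relative scale), Sparc (-1.98 and -1.49), Bmp1 (-2.05 and -1.55) and Loxl2 (-2.02 and -1.52). Itgb5 (-1.77 and -1.28), Tgfb1 (-1.72 and -1.23), Mmp12 (-3.22 and -2.72) and Ctsk (-1.40 and -0.90) were lower too. Sdc4 (0.58 and 1.08), Tgfbr3 (0.53 and 1.03), Lrp1 (0.38 and 0.88) and Ctgf (0.18 and 0.67) were higher in G609G. Of the assembly list 20 of 21 were lower in G609G than in LCS as deposited and 16 on the relative scale, where 1 was higher. Over all genes 70.5% were called lower as deposited, and 36.9% in each direction on the relative scale. Efemp1 (-1.01 and -0.51) and Bgn (-0.98 and -0.48) had the lowest p of that list.

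**Figure D4:**
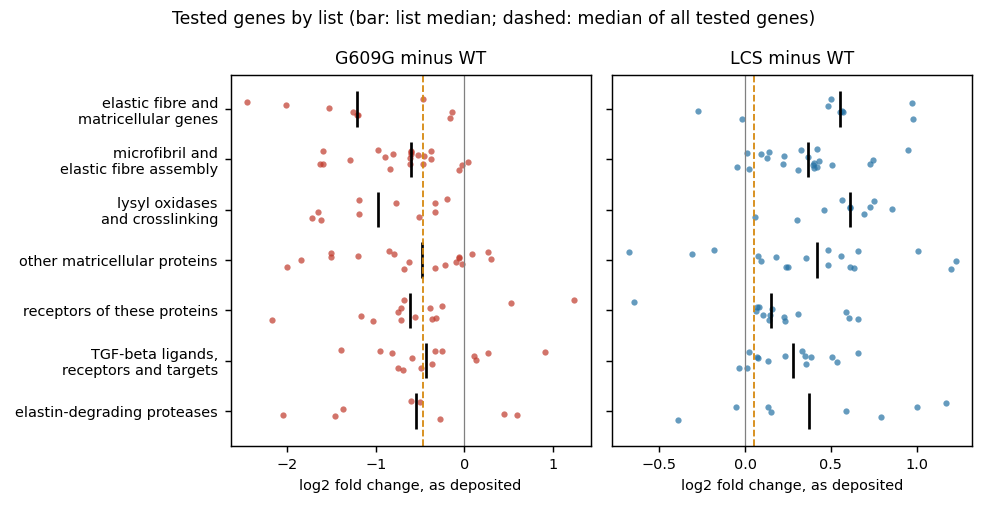
Log2 fold change as deposited (x axis) of every tested gene in the elastic fibre and matricellular set and in the 6 lists of related genes (y axis), in G609G minus WT on the left and LCS minus WT on the right; points are genes, black bars list medians and the dashed line the median of all tested genes. The elastic fibre and matricellular set has medians of -1.22 and 0.56, beside -0.47 and 0.05 for all genes.

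Markers of cell types in and near the depot moved in the same arrays. The 14 fibroblast and adipocyte progenitor markers, Pdgfra and Col1a1 among them, were all lower in G609G as deposited and 12 were lower on the relative scale. Their summed level, on a log2 scale, was 13.8 on every WT array, 12.7 to 12.8 in G609G and 14.1 on every LCS array, where in LCS 11 were higher and 1 lower. The order of the groups was that of Fbn1. This order was not particular to the fibroblast and progenitor markers. As deposited, summed levels of the macrophage, mesothelial and adipocyte markers were also lowest in G609G and highest in LCS, without overlap between groups. The offset of -0.46 between G609G and WT was not removed from any summed level. Adipocyte sums were 15.9 on every WT array and 15.4 to 15.5 in G609G, a gap about the size of that offset. The summed levels of the remaining marker lists did not have this order without overlap. The 13 skeletal muscle markers were all higher in G609G on both scales, with summed levels of 15.7 to 15.8 against 10.3 to 10.4 in WT, and 4 were higher in LCS (summed level 11.4 on every array). As a background, 71.3% of all genes were called lower and 8.26% higher in G609G as deposited, and 36.7% and 34.0% on the relative scale. In LCS 22.5% of all genes were called higher and 13.0% lower as deposited. Of 11 macrophage markers 10 were lower in G609G as deposited, and 6 lower and 1 higher on the relative scale, and 8 were higher in LCS. Of 10 mesothelial markers 9 were lower in G609G as deposited, and 6 lower and 2 higher on the relative scale, while 7 were higher and 2 lower in LCS. The 10 adipocyte markers were all above the filter in WT and LCS and 9 of them in G609G. Of these, 9 were lower in G609G as deposited, and 5 lower and 3 higher on the relative scale. Of 11 smooth muscle and pericyte markers 5 were higher and 3 lower in G609G as deposited, and 9 higher and 0 lower on the relative scale. For 9 endothelial markers these counts were 5 and 3, and 8 and 1. Of 14 epididymis and testis markers 12 were lower and 1 higher in G609G as deposited (11 and 2 on the relative scale), and 9 were lower and 4 higher in LCS. Of 3 tested liver markers 3 were lower in each mutant as deposited, and 2 in G609G on the relative scale. Of 5 platelet markers 4 were lower in G609G as deposited, and 2 lower and 1 higher on the relative scale, and 3 were lower and 1 higher in LCS. The part of these cell types in the differences of Fbn1, Thbs1, Fn1 and the other genes was not tested.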

How the data were processed

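Total RNA of perigonadal white adipose tissue was measured on Affymetrix exon arrays (WT Terminal Labeling Kit), with 3 arrays each of WT, G609G and LCS, grouped by title. The authors deposited log2 intensities of 229581 probe sets on each array. Their normalization, summary and software are not given in the sources used here. Genome build mm9 is named in the submitters' processing notes. The series' design mentions 10 samples; the 9 arrays given were used. Identical values made up at most 1.89% of any pair of arrays, so none was treated as a duplicate.

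Probe sets with exactly 1 symbol (208397, against 3965 with several and 17219 with none) were combined into genes by median polish of up to 10 rounds. Testing took genes of 3 or more probe sets whose mean exceeded the 25th percentile (5.09) and used limma over all 9 arrays (lmFit, eBayes with a trend), with Benjamini-Hochberg adjustment over 11342 genes and a threshold of 0.05; values relative to the median gene subtract from an array the median of its deviations from gene means. Probe sets above their own 25th percentile (5.13) were tested against the rest of their gene with diffSplice. Marker levels are log2 of summed linear intensities.

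Of 16299 symbols 14132 were current and 2161 synonyms in RefSeq's GRCm38.p6 table, the assembly of the promoter windows; no coordinates of the arrays were used. Same-numbered WT and G609G arrays deviated together from their group means (r = 0.168, 0.145 and 0.337, all over 0.1). For the other comparisons r was not over 0.1 for every pair. The labels do not state that arrays of different genotypes were paired. The replicate number was therefore a block only in alternatives, and the main tests use no block.

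The genes and lists were chosen with earlier results of these data known. Named genes are the listed ones, the 2 with the lowest p in each direction per related list and comparison, a few fixed matrix genes, the nearest profile per gene and, per comparison, 3 probe sets by lowest diffSplice p, 1 per gene. Alternatives were the summary, scaling, filters, variance model, array weights, a replicate block, leaving out each array and the methods' t-test (unpaired, fold of 1.5). Steps were tested on simulated data. Tools were limma 3.58.1 and data.table (version 1.17.8) in R 4.3.3, and matplotlib 3.10.9 in Python 3.11.15.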

Additional observations from a re-analysis of the deposited data

How the results depend on the processing

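The counts of genes lower in G609G, against WT and against LCS, stayed within 1.5 times under every alternative run. The counts higher did not. In G609G minus WT 0 genes were higher as deposited, 2 with quantile normalization, 2 relative to the median gene and 3 with array medians set equal. In G609G minus LCS 0 were higher as deposited, 2 under each of these 3 scalings, 1 with array weights, 1 with the replicate block over the 9 arrays, and 0 to 1 when 1 array was left out (1 without G609G replicate 1 or LCS replicate 1). The difference turned in sign in G609G minus WT for Eln (0.040 with quantile normalization, 0.000197 relative to the median gene, 0.15 with medians equal), Fbln1 (0.25, 0.31 and 0.46) and Thbs2 (0.24, 0.33 and 0.48), and in G609G minus LCS for Fbln1 (0.32, 0.36 and 0.50). In LCS minus WT the methods' t-test at a fold of 1.5 called 2 genes higher and 0 lower, both unadjusted and adjusted, and 0 lower without the fold minimum after adjustment. Member calls of diffSplice in LCS minus WT went from 13 to 3 with the splicing index and to 6 to 18 when 1 array was left out (6 without LCS replicate 1; 8 without WT replicate 1, WT replicate 2 or LCS replicate 3). The cause of these shifts was not tested. With the replicate number as a block on the WT and G609G arrays Thbs2 gained a call (adjusted p = 0.028) and Fbln1 kept its own (adjusted p = 0.0153), and no other call of the 9 genes in that comparison changed. The Fbln1 call was lost, however, in 8 of the 15 alternatives that kept all arrays. These included a plain mean of probe sets (limma adjusted p = 0.194) and a fit on the compared arrays alone (0.0746). Relative to the median gene, leaving out each array or adding a block changed no call of the 9 genes in any comparison. When 1 array was left out, the sign turned only where a gene was not called. This was so for Eln in G609G minus WT (-0.00649 to 0.0728) and Fbln1 in LCS minus WT (-0.0641 to 0.00536). Probe sets near the filters carry little signal over background.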
